A study of Neurospora crassa OR74A with 2 samples.

Results

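The genes described here were those between 2- and 4-fold lower in germlings of Neurospora crassa that lack the transcription factor PP-1. A gene was a member when it had 10 RPKM or more in the higher library, where RPKM stands for reads per kilobase of transcript model in a library scaled to 1000000 reads, together with a log2((Δpp-1 + 1)/(WT + 1)) of -1 or less but above -2. Of 8564 genes measured, 4831 reached 10 RPKM in the higher library and are called the genes tested, and 224 of these (4.64%) lay within the limits. The rule leaves out 18 of them, mainly genes of cell fusion and its signalling, which leaves 206 members. The same values that chose the members are given below, so the levels and folds are a description and support nothing about PP-1. In all, 337 genes (6.98%) were at least 2-fold lower and 132 (2.73%) at least 2-fold higher in Δpp-1, and 113 of the lower genes were at least 4-fold lower.

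The series holds 1 library of the pp-1 deletion strain (Δpp-1) and 1 library of the wild type (WT, strain FGSC 2489). Both cultures were grown from conidia, the asexual spores of this filamentous ascomycete, for 5 h at 30 °C, and mRNA was sequenced. With 1 library per strain no difference has a replicate check, and no p-value is given. Each value describes these 2 libraries of bulk RNA, in which fewer cells of a type and less RNA per cell cannot be told apart.

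PP-1 is a Ste12-type transcription factor that acts downstream of the MAK-2 MAP kinase. In Saccharomyces cerevisiae, Ste12 turns on genes of mating and filamentous growth after the MAP kinase of the pheromone pathway is activated. In N. crassa, germinating conidia fuse into a network under the control of MAK-2, and strains without pp-1 do not fuse as germlings and do not form female sexual structures.

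The deleted gene stood at 1.69 RPKM in Δpp-1 and 83.8 RPKM in WT. The low value was in the library labelled as the deletion. Before any scaling, the log2 fold of the median gene of the 4831 was -0.28, with quartiles of -0.56 and 0.02. Log2 folds relative to this median gene are given below for some genes and counts only. Counts over gene lists use the values as deposited unless stated otherwise. The spacing of the lowest values put the library totals at 9363921 reads for Δpp-1 and 7870077 reads for WT, if the step between values is worth 1 read. No value was found at 1 step, and if 2 steps were 1 read the totals would be 4681960 reads for Δpp-1 and 3935039 reads for WT. Of 8 markers of conidia and aerial hyphae, 4 (con-6, con-10, eas and al-1) were past 2-fold higher in Δpp-1. The log2 folds of con-8, ccg-1, acon-3 and fl were -0.23, -0.11, -0.76 and -0.07, none past 2-fold lower with 1 RPKM added to each value. Of these, con-8, acon-3 and fl were under 10 RPKM in both libraries. The summed level of the 8 was 337 RPKM in Δpp-1 and 93.3 RPKM in WT, of which al-1 alone gave 187 RPKM in Δpp-1 and 41.1 RPKM in WT. None of the 8 was at 0, and the lowest was acon-3 at 0.668 RPKM in Δpp-1 and 1.83 RPKM in WT. Among 3 genes abundant in growing hyphae, hex-1 was 2-fold lower, and act and pma-1 were not, with a sum of 2554 RPKM in Δpp-1 and 4045 RPKM in WT. The part of a different share of conidia in the lower values of the members was not tested.

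The members ranged from 2.39 to 1027 RPKM in Δpp-1, with a median of 10.9 RPKM, and from 10.1 to 2235 RPKM in WT, with a median of 27.1 RPKM. All 206 were above 0 in both libraries, which the limits of the class fixed. The median member kept 40.9% of its WT level in Δpp-1. Most members stood closer to the 2-fold limit than to the 4-fold limit: 114 had log2 folds above -1.25, 42 lay between -1.5 and -1.25, 37 between -1.75 and -1.5, and 13 between -2 and -1.75. The median log2 fold was -1.23.

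**Figure D1:**
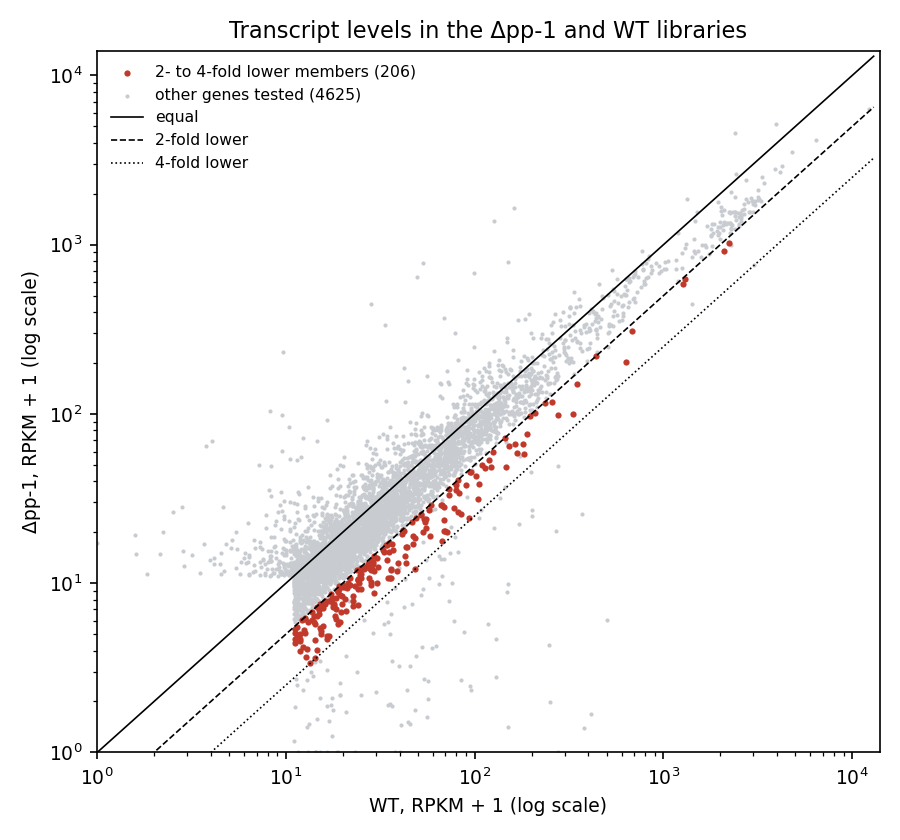
Each point is 1 of the 4831 genes tested, with RPKM + 1 in Δpp-1 on the vertical and in WT on the horizontal log axis, from 1 library per strain. The 206 members (red) fill the band between the 2-fold and 4-fold lines from about the lowest levels tested up to 2235 RPKM in WT, and the 18 genes left out by the rule are among the grey points of that band.

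Members made up similar shares of the genes tested at each WT level from 10 RPKM up. WT was the higher library for every member, so genes tested under 10 RPKM in WT could hold none and are not counted here. In Δpp-1, 97 members were under 10 RPKM and met the minimum through WT alone. They were 74 of 1538 genes (4.81%) between 10 and 20 RPKM in WT, 71 of 1639 (4.33%) between 20 and 50 RPKM, 31 of 713 (4.35%) between 50 and 100 RPKM and 30 of 774 (3.88%) at 100 RPKM or more. Gene spans had a median of 2327 bases for members and 2440 bases for all genes tested. A gene symbol was known for 21 of the 206 members (10.2%) and for 840 of the 4831 genes tested (17.4%). The rule had left out genes with symbols, and of all 224 genes within the limits 38 (17.0%) had one. The remaining 185 members carry only a locus identifier here, so most of the class consists of genes whose roles are not given.

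The class has no break at either limit. The 5 members closest to the 4-fold limit were NCU00821, NCU07326, NCU05648, NCU05835 and NCU00303, with log2 folds from -1.99 to -1.92. NCU00821 stood at 11.2 RPKM in Δpp-1 and 47.6 RPKM in WT. Just past that limit, NCU02988, NCU02429, NCU04872, NCU01211 and NCU01148 had log2 folds from -2.0 to -2.05. At the 2-fold limit the last members were NCU07040, NCU08923, NCU06062, NCU00483 and NCU05083, from -1.0 to -1.002. The closest genes outside it were NCU06305, NCU08982, mtr (NCU06619, an amino acid permease gene), NCU03106 and NCU01742, from -0.999 to -0.992. NCU08923, inside, stood at 218 RPKM in Δpp-1 and 438 RPKM in WT, and mtr, outside, at 95 RPKM in Δpp-1 and 190 RPKM in WT.

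**Figure D2:**
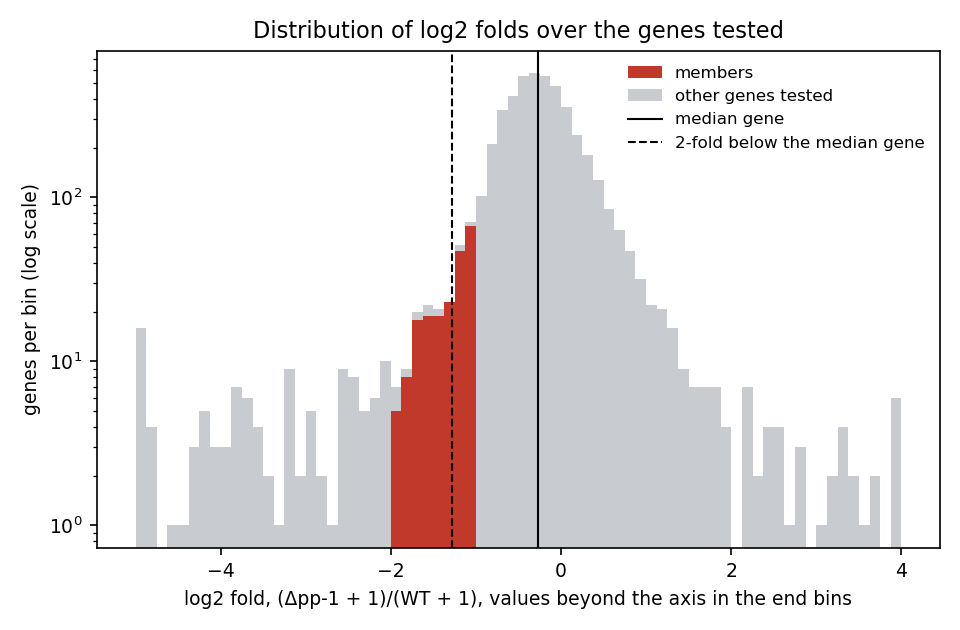
Stacked bars count the 4831 genes tested by log2 fold of Δpp-1 over WT in bins of 0.125 on a log axis, members in red, with the median gene (-0.28) and the value 2-fold below it as vertical lines. The members form the lower shoulder of 1 continuous distribution, and 87 of the 206 lie left of the dashed line.

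Counting error differed widely between members. From RPKM, gene span and library total, the median member had 237 reads in Δpp-1 and 525 reads in WT, and the lowest counts were 35 reads in Δpp-1 and 92 reads in WT. Exact 95% counting intervals of the RPKM ratio, taken without a pseudocount on 50% of these reads as a cautious figure, had a median width of 0.65 on the log2 scale. For 104 of the 198 members with a usable span the whole interval was past a 2-fold reduction, and for 94 it reached above. For 47 it reached past a 4-fold reduction. On 25% of the reads, the same caution if 2 steps between values were 1 read, 72 of the 198 had the whole interval past a 2-fold reduction. The intervals cover counting error only, PCR copies are not independent molecules, and the members were picked by the size of the same ratio.

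**Figure D3:**
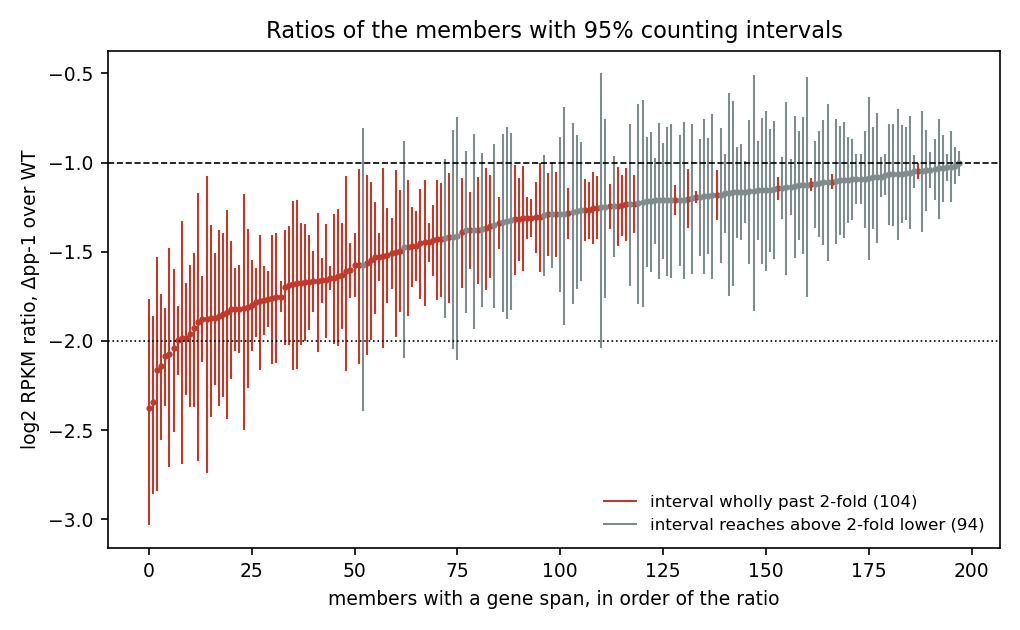
The log2 RPKM ratio of Δpp-1 over WT is shown for the 198 members with a gene span, in order of the ratio, with exact 95% counting intervals as bars and the 2-fold and 4-fold reductions as dashed and dotted lines. The 94 grey intervals reach above the 2-fold line and the 104 red ones do not.

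Of the 21 members with a symbol, 7 encode regulators of transcription or chromatin, 6 of them transcription factors. The carbon catabolite repressor gene cre-1 (NCU08807), whose product shuts down genes for less favoured carbon sources when glucose is present, stood at 41.8 RPKM in Δpp-1 and 101 RPKM in WT. Asm-1 (NCU01414), an APSES-type regulator of aerial growth and sexual development, stood at 28.0 RPKM in Δpp-1 and 65.6 RPKM in WT. On the log2 scale the counting interval was -1.43 to -1.11 for cre-1 and -1.39 to -1.07 for Asm-1, so both intervals lay past a 2-fold reduction in the values as deposited. With the libraries scaled to equal medians the log2 folds were -0.99 for cre-1 and -0.95 for Asm-1, short of 2-fold. The genes tah-3 (NCU03686), named for tall aerial hyphae, and ff-7 (NCU04001), named for female fertility, come from deletions of transcription factor genes. The level of tah-3 was 14.3 RPKM in Δpp-1 and 34.1 RPKM in WT, and that of ff-7 was 10.9 RPKM in Δpp-1 and 28.3 RPKM in WT.

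A pair of regulators known from sexual development were also among the members. The NDT80-like gene fsd-1 (NCU09915), which acts in female sexual development, stood at 4.06 RPKM in Δpp-1 and 10.1 RPKM in WT, the lowest WT level of the class. For asd-4, a GATA-type gene needed for ascus and ascospore formation, the files hold a pair of older gene models that the gene table joins. The member NCU07040 stood at 6.28 RPKM in Δpp-1 and 13.6 RPKM in WT, a log2 fold of -1.0, and the other model, NCU07039, at 20.7 RPKM in Δpp-1 and 26.9 RPKM in WT, a log2 fold of -0.36. Only the first model of asd-4 therefore met the limits, and the level and fold of the whole gene are uncertain. Among chromatin genes, the histone deacetylase gene hda-3 (NCU00824) stood at 5.72 RPKM in Δpp-1 and 12.7 RPKM in WT, and its counting interval, from -1.54 to -0.77, reached above a 2-fold reduction.

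Across a wider list of transcription factor genes with a symbol, 43 identifiers were among the genes tested. Of these, 10 were at least 2-fold lower in Δpp-1 and 0 at least 2-fold higher, beside 6.98% lower and 2.73% higher over all genes tested. Relative to the median gene, 3 of the 43 (the deleted pp-1, ada-1 and ff-7) were 2-fold lower and 1 (col-22) was 2-fold higher. The share of all genes tested past 2-fold from the median gene is not given here, so nothing is read from these counts. The 10 included pp-1 itself, the 6 members above, nit-2, adv-1 and ada-1. The median log2 fold over the 43 was -0.36, which is -0.09 relative to the median of all genes tested. At the upper end, col-22 (NCU04390) had a log2 fold of 0.92 and sah-2 (NCU04731) of 0.54. Relative to the median gene, ff-7 was the single member of the 6 that was still 2-fold lower, at -1.03, and the others lay between -0.97 for cre-1 and -0.72 for asd-4.

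Of the members with a symbol, 4 act in signalling or nuclear movement, after the rule had left out genes of cell fusion and its signalling, and all 4 stood at 24.1 RPKM or less in WT. The putative G protein-coupled receptor gene gpr-5 (NCU00300) stood at 4.42 RPKM in Δpp-1 and 14.1 RPKM in WT. The gene mob-1 (NCU01605), whose product activates the NDR kinase DBF-2 in septum formation, stood at 8.25 RPKM in Δpp-1 and 24.1 RPKM in WT. Both were past 2-fold over their whole counting interval, which ran from -2.16 to -1.21 for gpr-5 and from -1.99 to -1.11 for mob-1. The kinase gene prk-3 (NCU03659) stood at 3.66 RPKM in Δpp-1 and 10.2 RPKM in WT, and nudf-1 (NCU04312), which encodes a LIS1-type protein of dynein-dependent nuclear movement, at 7.57 RPKM in Δpp-1 and 18.3 RPKM in WT. For prk-3 and nudf-1 the interval reached above a 2-fold reduction.

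Wider lists of the same kind were counted beside these. Their counts stand beside 6.98% of all genes tested at least 2-fold lower and 2.73% at least 2-fold higher. Of 70 protein kinase genes tested, 2 were at least 2-fold lower and 0 higher, and the median log2 fold was -0.20, against -0.28 over all genes tested. Of 6 genes of NDR kinases and their partners, mob-1 alone was 2-fold lower. None of 13 genes of small GTPases and their regulators, 12 of actin and polarity and 8 of protein phosphatases was 2-fold lower or higher, and of 3 tested G protein-coupled receptor genes gpr-5 alone was past 2-fold. Of 7 gene models of the MAK-2 pathway, 4 were 2-fold lower, and these are pp-1, adv-1 and the pair of models of ham-5, which the rule leaves out or which lie beyond 4-fold.

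**Figure D4:**
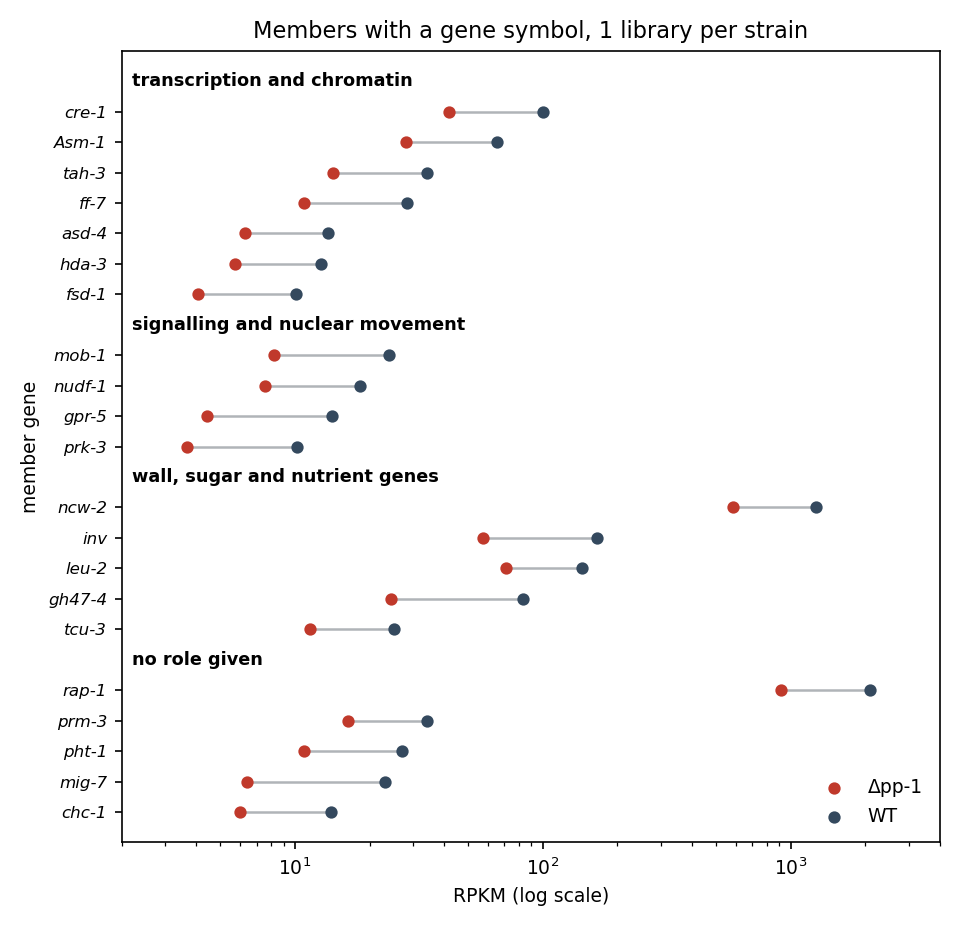
The 21 members with a gene symbol are shown in 4 groups with their RPKM in Δpp-1 (red) and WT (dark blue) on a log axis, 1 library per strain, so no error bars can be drawn. Regulators and signalling genes lie at or below 101 RPKM in WT, while ncw-2 and rap-1 are above 1000 RPKM in WT.

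The members that act in the cell wall, in sugar use and in nutrition covered a wide range of levels. The gene ncw-2 (NCU01752), which encodes a non-anchored cell wall protein, stood at 586 RPKM in Δpp-1 and 1263 RPKM in WT. The gene gh47-4 (NCU05836), of a family of α-mannosidases that trim glycans of proteins, stood at 24.5 RPKM in Δpp-1 and 83.6 RPKM in WT. The invertase gene inv (NCU04265), whose product splits sucrose, stood at 57.6 RPKM in Δpp-1 and 166 RPKM in WT. The log2 fold of gh47-4, -1.73, was the lowest among the members with a symbol, that of inv was -1.51, and both remained past 2-fold relative to the median gene. The leucine synthesis gene leu-2 (NCU04385) stood at 71.1 RPKM in Δpp-1 and 144 RPKM in WT, and the copper transporter gene tcu-3 (NCU07428) at 11.5 RPKM in Δpp-1 and 25 RPKM in WT. The intervals of leu-2, from -1.12 to -0.91, and tcu-3, from -1.51 to -0.75, reached above a 2-fold reduction.

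Over all genes tested, 6.98% were at least 2-fold lower and 2.73% at least 2-fold higher, beside which the counts of this paragraph stand. Of 21 genes tested of polysaccharide and glycan enzymes, 9 were at least 2-fold lower, 2 of them the members gh47-4 and inv, and 0 were 2-fold higher. The median log2 fold was -0.55, against -0.28 over all genes tested. Of 24 genes of cell wall proteins and synthases, 5 were 2-fold lower and 1 was 2-fold higher, with a median of -0.42. The gene leu-2 was the single gene 2-fold lower of 54 tested genes of amino acid synthesis, where 1 was 2-fold higher and the median was -0.23. For 11 genes of metal and ion transport, 9 of dynein and nuclear movement and 7 histone deacetylases, the member named above was the single gene past 2-fold. The medians were -0.30, -0.49 and -0.48. Relative to the median gene, leu-2 (-0.73), tcu-3 (-0.78), nudf-1 (-0.89) and hda-3 (-0.75) were all short of 2-fold lower.

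Lists of core cell functions held no member. None of 30 proteasome genes, 29 of mitochondrial complex I, 21 of protein import into mitochondria, 19 of peroxisome biogenesis, 14 of the vacuolar ATPase, 11 of heat shock proteins and 9 of histone acetyl- and methyltransferases was 2-fold lower or higher, with medians from -0.55 for heat shock proteins to -0.02 for the transferases. Of 12 DNA repair genes, 0 were lower and 1 was higher. Of 8 cytosolic ribosomal protein genes, 1, left out by the rule, was 2-fold lower, and the median was -0.76. These counts stand beside 6.98% of all genes tested that were 2-fold lower.

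The 5 other members with a symbol were rap-1 (NCU03393), prm-3 (NCU01669), pht-1 (NCU06351), mig-7 (NCU02220) and chc-1 (NCU00749). Of these, rap-1 was the second most abundant member, at 917 RPKM in Δpp-1 and 2096 RPKM in WT. Its counting interval was narrow, from -1.23 to -1.16, on 19909 reads in Δpp-1 and 38244 reads in WT. With the libraries scaled to equal medians the log2 fold of rap-1 was -0.93, short of 2-fold. The gene mig-7 stood at 6.39 RPKM in Δpp-1 and 23 RPKM in WT, pht-1 at 10.9 RPKM in Δpp-1 and 27.1 RPKM in WT, chc-1 at 5.98 RPKM in Δpp-1 and 14.0 RPKM in WT, and prm-3 at 16.3 RPKM in Δpp-1 and 34.2 RPKM in WT.

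The most abundant members are the best measured by counting error alone, and most have no symbol. NCU03757 stood at 1027 RPKM in Δpp-1 and 2235 RPKM in WT, the highest level of the class. NCU00811 stood at 630 RPKM in Δpp-1 and 1303 RPKM in WT, and NCU05789 at 309 RPKM in Δpp-1 and 682 RPKM in WT. Together with rap-1 and ncw-2, these were close to the 2-fold limit, with log2 folds from -1.19 to -1.05 for all 5. With the libraries scaled to equal medians, all 5 fell short of 2-fold, at -0.93 (rap-1) to -0.79 (NCU00811). A pair of abundant members was lower by more. NCU05404 stood at 201 RPKM in Δpp-1 and 629 RPKM in WT, a log2 fold of -1.64 with an interval from -1.72 to -1.58. NCU02470 stood at 98.5 RPKM in Δpp-1 and 332 RPKM in WT, a log2 fold of -1.74 with an interval from -1.84 to -1.66. With equal medians, NCU05404 and NCU02470 stayed past 2-fold, at -1.39 and -1.49. The others of the 12 most abundant were NCU08923, NCU09497, NCU11183, NCU01331 and NCU02736, with log2 folds from -1.48 (NCU11183) to -1.0 (NCU08923). At the other end of the class, the lowest member in Δpp-1, NCU07326, stood at 2.39 RPKM in Δpp-1 and 12.4 RPKM in WT, and its interval ran from -3.03 to -1.77.

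Gene order was not used by the rule, and some members were neighbours in it. Of 200 members with a place in the RefSeq gene order of assembly NC12, 17 (8.5%) lay directly next to another member, in 9 pairs, while 170 of 4569 other genes tested (3.72%) had a member as a direct neighbour. No test was made of this difference. The 17 became 7 with median or upper-quartile scaling, where the class held 112 and 115 genes. With both libraries at a sum of 1000000 they became 9, in a class of 110. With a minimum of 30 RPKM in the higher library they became 2 in a class of 90, and with 1 RPKM 37 in a class of 365. Shares of other genes at these settings are not given here. In 1 of the 9 pairs, NCU06948 and NCU06949, the annotated spans overlap, and since the library preparation described does not mark strand, their reads cannot be told apart. Spans overlapped another gene for 51 of the 200 members (25.5%) and for 1477 of 4769 genes tested (31.0%), and fsd-1, gh47-4, gpr-5, inv, leu-2, mig-7, ncw-2 and prm-3 were among these members.

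The longest stretch of neighbours held gh47-4. Next to it, NCU05835 stood at 23.2 RPKM in Δpp-1 and 92.5 RPKM in WT. On the far side of NCU05835, NCU05834 was listed at 0 in Δpp-1 and at 10.6 RPKM in WT. On the other side of gh47-4, NCU11308, whose span overlaps that of gh47-4, stood at 8.85 RPKM in Δpp-1 and 63.9 RPKM in WT. All 4 consecutive genes were therefore at least 2-fold lower as listed, and the genes on either side of them, NCU05833 and NCU05837, were under 10 RPKM in both libraries. The 0 of NCU05834 may be an estimate that failed, and reads of NCU11308 and gh47-4 cannot be told apart where their spans overlap.

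A second stretch was made of 3 members side by side. NCU06117 stood at 22.7 RPKM in Δpp-1 and 67.5 RPKM in WT, NCU06116 at 7.77 RPKM in Δpp-1 and 28.4 RPKM in WT, and NCU06114 at 9.66 RPKM in Δpp-1 and 35.1 RPKM in WT. Their log2 folds were alike, at -1.53, -1.75 and -1.76. The next genes outward, NCU06118 and NCU06113, had log2 folds of -0.53 and -0.40. By definition a stretch ends where the next gene was not 2-fold lower or was under 10 RPKM in both libraries. In the third stretch, the members NCU05917 (10.8 RPKM in Δpp-1 and 37.6 RPKM in WT) and NCU05916 (9.56 RPKM in Δpp-1 and 23 RPKM in WT) lay beside NCU05915, at 2.49 RPKM in Δpp-1 and 35.7 RPKM in WT.

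**Figure D5:**
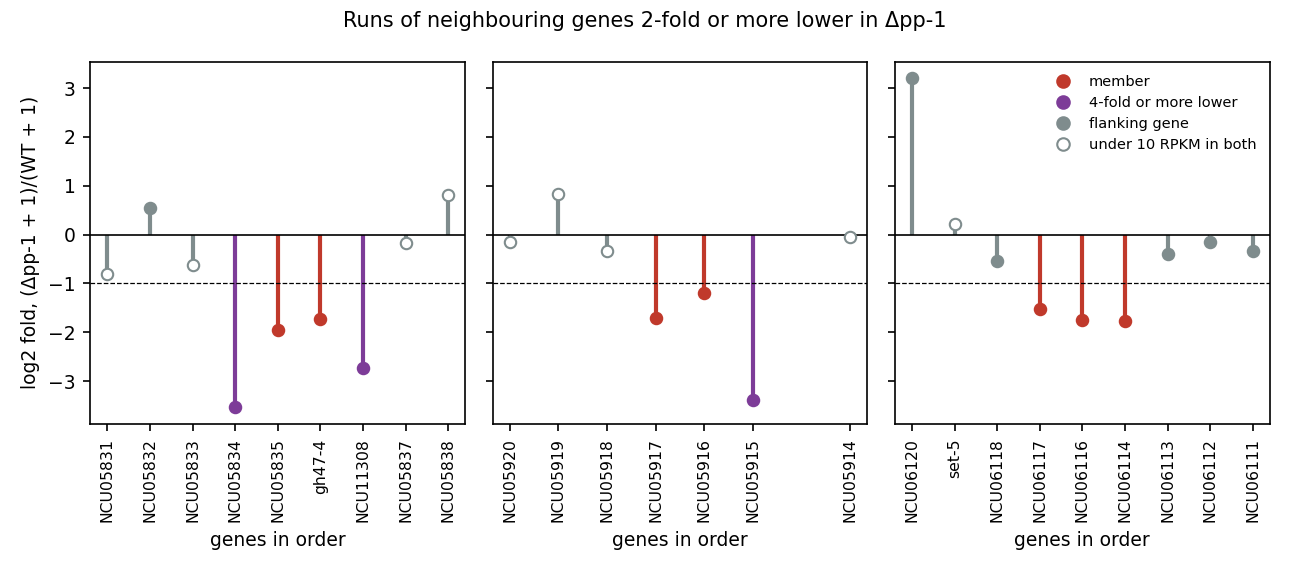
Vertical lines give the log2 fold of Δpp-1 over WT for consecutive genes in 3 stretches that each hold at least 3 neighbours 2-fold or more lower, with up to 3 measured genes on either side, and open symbols mark genes under 10 RPKM in both libraries. The members and their 4-fold lower neighbours lie below the dashed 2-fold line and the nearest flanking genes do not, which follows from how the stretches were drawn.

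The remaining pairs of adjacent members stood alone. NCU02219 stood at 12.1 RPKM in Δpp-1 and 42.2 RPKM in WT beside mig-7, with log2 folds of -1.72 for NCU02219 and -1.70 for mig-7. NCU09159 (log2 fold -1.63) lay beside NCU09160 (-1.13), NCU06063 (-1.34) beside NCU06062 (-1.0), and NCU03175 (-1.07) beside NCU03176 (-1.04). In the overlapping pair, NCU06948 had a log2 fold of -1.04 and NCU06949 of -1.53. In all, 6 members lay next to a gene at least 4-fold lower, 3% of the members with a place, against 1.61% of other genes tested, and 3 of these 6, NCU05835, gh47-4 and NCU05916, were also next to another member. Those outside the stretches above were NCU02370 beside the polygalacturonase-family gene gh28-1, NCU08738 beside NCU08739 and NCU09244 beside NCU09245.

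With the members themselves taken out, most neighbours of members were not past 2-fold. The 170 tested genes next to a member that were not members had a median log2 fold of -0.35, with quartiles of -0.62 and -0.10, and the 4625 genes tested that were not members had a median of -0.25, with quartiles of -0.51 and 0.03. Of the 170, 7 were at least 2-fold lower and 3 at least 2-fold higher, beside 131 lower and 132 higher of the 4625. In these 3 cases adjacent genes differed in opposite directions. NCU06939 stood at 5.22 RPKM in Δpp-1 and 11.7 RPKM in WT, while its neighbour NCU06940 stood at 83.2 RPKM in Δpp-1 and 9.42 RPKM in WT. Likewise, NCU00142 stood at 8.29 RPKM in Δpp-1 and 18.1 RPKM in WT beside NCU00144, at 52.8 RPKM in Δpp-1 and 9.55 RPKM in WT, and NCU06206 at 23.4 RPKM in Δpp-1 and 47.8 RPKM in WT beside NCU06207, at 156 RPKM in Δpp-1 and 43.1 RPKM in WT. The neighbours that are not members, the members named only for such a neighbour, and col-22 and sah-2 were named after their values were seen.

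How many members count as 2-fold lower depended on how the libraries were set against each other. With the libraries brought to an equal median over genes averaging 10 RPKM or more, the log2 folds of abundant genes moved up by 0.26, and 98 of the 206 members remained at least 2-fold lower. With both libraries at a sum of 1000000 the shift was 0.40 and 74 remained. Among the 21 members with a symbol, 7 remained with median scaling. All 206 members were below the median gene in the values as deposited, which the limits of the class fixed.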

How the data were processed

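Trizol was used for extraction, per the labels' protocols, then mRNA was selected on oligo(dT) beads and fragmented, and cDNA made with random primers was ligated to adapters, size-selected and amplified by PCR. The submitters' processing notes name TopHat and Cufflinks without version or role. Which build and annotation they used is not given in the sources used here. The deposited values are RPKM, per the file headers, used as the authors gave them. Each of 238 genes listed more than once had the same value each time and was counted once. A value of exactly 0 may be an estimate that failed.

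Log2 folds had a pseudocount of 1 RPKM, which understates the change of low genes. RefSeq's gene table of assembly NC12 gave symbols, gene spans and gene order only. It matched 8087 identifiers by current tag and 141 by a single older one. Promoter and protein sequences were not used here.

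RPKM multiplied by span in kilobases piled up at 2, 3 and 4 times 0.107 in Δpp-1 (10, 11 and 3 genes) and 0.127 in WT (6, 11 and 9 genes), against at most 2 genes at 2.5 and 3.5 times. None lay at 1 step. The step was taken as 1 read, which gives the library totals, and this was not settled. Among the 800 genes that both libraries list between 0 and 1.5 RPKM, 100 had the ratio of equal steps and 53 that of 2 against 3, within 0.002 on the log2 scale. Spans hold introns and a step may be less than a read, so intervals use 50% of the reads. They are Clopper-Pearson intervals from SciPy 1.17.1, and the code was checked on simulated data.

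Named by rule were pp-1, every member with a symbol, the 12 members highest in WT, the 5 genes on each side of each limit and members next to another member. The members and all gene lists were chosen with earlier results of these data known.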

Additional observations from a re-analysis of the deposited data

How the results depend on the processing

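No paired analysis was possible because there was 1 library for each strain, which also means that none could be left out. The class held 206 genes in the values as deposited. It held 112 genes with median scaling, 110 with both libraries at a sum of 1000000, 115 with upper-quartile scaling, 365 with the minimum in the higher library lowered to 1 RPKM and 90 with it raised to 30 RPKM, which by construction lets more or fewer genes in. Of the 206 members, 98, 74 and 101 were still within the limits under the 3 scalings, which all raise Δpp-1 relative to WT. The count of 98 members at least 2-fold lower with median scaling was chosen after seeing the data. With a pseudocount of 0.1 the class held 233 genes, 199 of them members, and with 5 it held 153, of which 107 were members, while 99 members fell short of 2-fold. The intervals on 25% of the reads were added after seeing the data. The 17 members next to another member became 7 with median scaling, 9 with the sum at 1000000, 7 with upper-quartile scaling, 37 with the minimum of 1 RPKM and 2 with that of 30 RPKM, and stayed within 1.5 times with the other pseudocounts and with neighbours up to 2 genes apart. None of the 63 genes named by rule changed the sign of its fold under the 3 scalings or the 2 pseudocounts. This was fixed in advance, since all were chosen at log2 folds of -0.99 or lower. The scalings moved folds by at most 0.40, and a pseudocount cannot change a sign. With median scaling, 24 of the 63 had a fold outside the counting interval or had no interval. That number was 33 with the sum at 1000000, 24 with upper-quartile scaling, 3 with a pseudocount of 0.1 and 14 with 5. Other genes named here, such as act, were not followed. The planned search of promoters for TGAAACA was not run. Depth limits the low members most, since intervals were up to 1.66 wide on the log2 scale.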
